A study of Mus musculus with 6 samples.

Results

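Mitosis and cytokinesis genes were examined in cortex tissue taken from mouse embryos at E12.5. The list held 50 genes chosen by their roles in cell division, and 49 of them had a row with exactly 1 gene symbol, each of these with 1 such row. Ccnb1, which encodes cyclin B1, had none in the annotation used here and is given no value. All 49 passed the filter on dim genes (a mean log2 level of at least 5.02, the 25th percentile of rows with 1 symbol), so they were 49 of the 16724 genes tested, out of 22180 genes with a usable row. There were 3 embryos of genotype Lats1F/F;Lats2F/F;Nestin-Cre, called DKO (double knock-out) here, and 3 embryos labelled control, whose alleles the labels do not spell out. Nestin-Cre is a Cre recombinase transgene under nestin regulatory sequence, which is active in neural progenitors, so blood and vessel cells in the dissected tissue are not its main target. The labels give 1 independent, untreated embryo per sample, and each was hybridised to 1 whole-transcript array.

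Entry into mitosis is driven by the kinase Cdk1 bound to A- and B-type cyclins, and the kinases Plk1, Aurora A and Aurora B build the spindle and attach chromosomes to it at the kinetochores. The spindle checkpoint holds anaphase back until the kinetochores are attached, after which the anaphase-promoting complex has securin and cyclin B destroyed and the cell divides. Most of these genes are transcribed late in the cell cycle, and their level in a tissue is commonly read as a measure of how many cells cycle. In the embryonic cortex the cycling cells are the apical progenitors at the ventricle and the intermediate progenitors, whereas neurons have left the cycle. Lats1 and Lats2 are the Hippo pathway kinases that restrain the coactivators YAP and TAZ.

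The values are log2 levels made by RMA (robust multi-array average), which equalises the arrays at the level of probes, so a shift shared by every transcript cannot be detected. In bulk tissue, fewer cycling cells and less RNA per cycling cell cannot be told apart. As a check of the labels, Lats1 was at 7.82, 7.82 and 7.74 in DKO 1 to 3, against 8.81, 8.34 and 8.98 in control 1 to 3. Its DKO level was 0.531 of the control level (log2 fold change -0.91 ± 0.14 SE, limma adjusted p = 0.0189), and this call was lost without DKO 1 (adjusted p = 0.0875), DKO 3 (0.0811), control 1 (0.0809) or control 3 (0.0571). Lats2 was at 7.36, 7.18 and 7.27 in DKO, against 7.16, 6.84 and 7.11 in control embryos, so every DKO embryo was higher (log2 fold change 0.24 ± 0.10 SE, limma adjusted p = 0.285). Which exons the probes of either gene read is not given here. The check of the labels therefore rests on Lats1 alone, and Lats2 went the other way. Array medians over all rows lay between 5.94 and 5.97 and correlations between arrays from 0.978 to 0.994. Precision was set by having 3 arrays in each group. The cortical progenitor marker Pax6 was at 9.58 to 9.68 in DKO and 9.56 to 9.77 in control embryos, well above the filter value.

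No mitosis or cytokinesis gene passed the test. At a limma adjusted p under 0.05, 0 of the 49 rose and 0 fell, where 1.36% of all genes tested rose and 0.359% fell. At an unadjusted p under 0.05 there were 2 (4.08%), Ect2 and Incenp, where 15.6% of all genes had such a p. This count depended on the setting, from 1 without DKO 2, control 1 or control 3 to 8 with an intensity trend. Shares of all genes under those settings are not at hand. Of 9 other settings that used all 6 arrays, 6 also called 0 of the 49, while Ect2 alone was called with a filter at the median, with an intensity trend in the variance and with array weights. The counts over all genes depended on single embryos. All 6 arrays gave 228 higher and 60 lower. Leaving out DKO 1 gave 131 higher and 14 lower, and leaving out DKO 3 gave 130 and 14. Leaving out DKO 2 moved the higher count the other way, with 260 higher and 54 lower. The counts were 137 and 11 with control 1 left out, 140 and 53 with control 2 left out, and 121 and 13 with control 3 left out.

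The 95% interval of the log2 fold change lay inside 1.5-fold either way (within 0.585 of 0) for all 49, as it did for 95.7% of all genes tested. It lay inside 1.2-fold for 36 of 49, or 73.5%, and for 48.5% of all genes. The outermost bounds were -0.39, for Incenp, and 0.47, for Ect2. Each interval speaks of 1 gene and of the spread between these embryos. The within-group SD had a median of 0.083 over the 49 genes and of 0.095 over all genes tested.

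The genes as a list lay near other genes. Their median log2 fold change was -0.036, beside -0.028 for all genes tested, and 34 of 49 (69.4%) had a lower mean in DKO, beside 60.2% of all genes. For 7 genes each DKO array was lower than any control array (14.3%, beside 13.4% of all genes), namely Bub3, Spc25, Kif22, Nusap1, Top2a, Mki67 and Incenp. All 3 lay above for 2 genes (4.08%, beside 8.22% of all genes), Anln and Ect2. Leaving out an array makes such separation more frequent by construction. The count below was 20 (40.8%, beside 19.5% of all genes) without DKO 1, 15 (30.6%, beside 22.3%) without control 2 and 12 (24.5%, beside 21.8%) without DKO 3. It was under the share of all genes without DKO 2 (7, 14.3%, beside 18.8%), control 1 (8, 16.3%, beside 17%) or control 3 (9, 18.4%, beside 19%). The count above was 5 (10.2%) without DKO 2, beside 14.9% of all genes, and 5 without control 3, beside 11.9%.

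**Figure D1:**
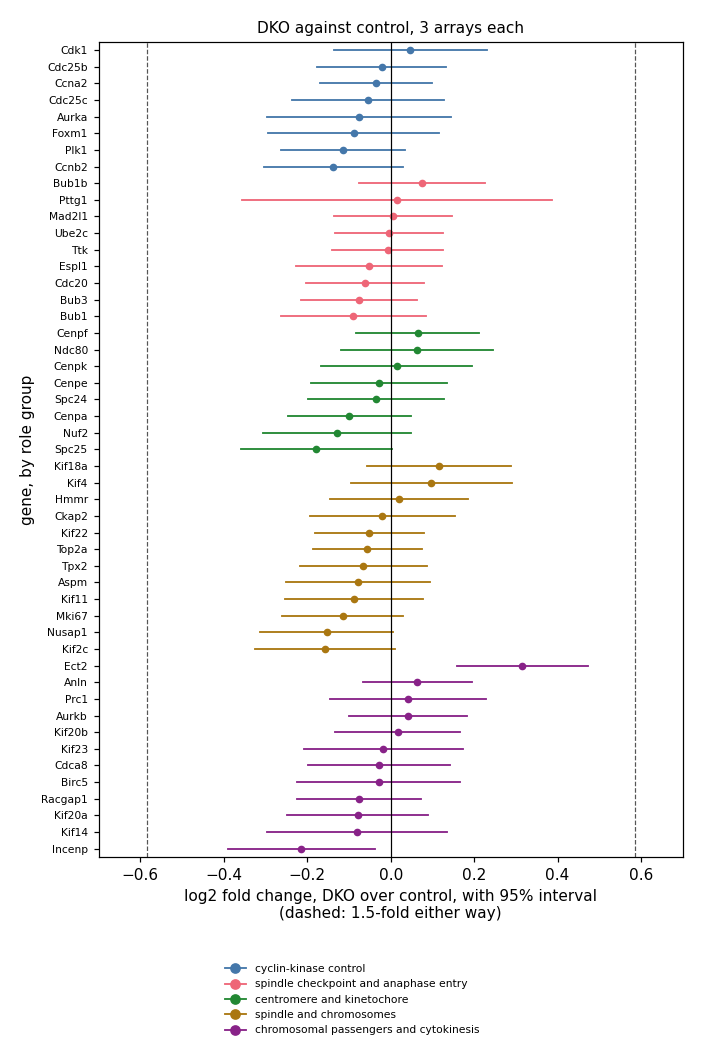
Log2 fold change of each of the 49 measured genes (x axis, DKO over control, 3 arrays each) with its 95% interval from limma. Genes run down the y axis by role group, colours mark the role groups, and dashed lines mark 1.5-fold either way; every interval lies between the dashed lines, and those of Ect2 (0.16 to 0.47) and Incenp (-0.39 to -0.04) are the 2 that do not span 0.

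Many of these genes carry the same short elements at their start sites. The cell cycle genes homology region (CHR) is bound by MuvB complexes, which repress late cell cycle genes in resting cells and activate them before mitosis, and the CCAAT box is bound by NF-Y. RefSeq promoter windows of build GRCm38.p6, from 250 bases before to 50 after an annotated start, were at hand for 42 of the 50 genes (Ccnb1 included), as 47 windows. Both strands were searched for TTTGAA (CHR), CCAAT and, for the YAP and TAZ partners of the TEAD family, GGAATG. A CHR match stood in 72.3% of the mitotic windows and 17.9% of all 32851 windows, and a CCAAT match in 78.7% and 37.4%. Both stood in 63.8% of the mitotic windows and 6.95% of all windows, and the 2 kinds of match shared a base in 1 mitotic window and in 47 of all windows. GGAATG stood in 10.6% of the mitotic windows and 14.7% of all windows. It never overlapped a CHR match, and it overlapped a CCAAT match in 0 mitotic windows and in 58 of all windows. A match is a description of the letters and not a shown binding site.

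The promoters of Ccnb2, Cdk1, Top2a, Plk1, Mki67 and Ect2 are shown to give the range of layouts among uncalled late cell cycle genes, beside Ect2, which had the smallest p of the 49. Each runs 5′ to 3′ on the gene's strand (plus for Plk1 and minus for the others) from 100 bases before to 30 after the annotated start, with CHR and CCAAT matches of either strand in capitals. They lie at chr9:70421525-70421654, chr10:69352883-69353012, chr11:99024160-99024289, chr7:122159335-122159464, chr7:135716350-135716479 and chr3:27153849-27153978 of GRCm38.p6, the last being the first of 2 windows listed for Ect2.
Ccnb2: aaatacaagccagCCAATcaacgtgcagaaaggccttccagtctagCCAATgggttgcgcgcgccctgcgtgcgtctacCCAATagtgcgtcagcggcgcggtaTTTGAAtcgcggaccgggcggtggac
Cdk1: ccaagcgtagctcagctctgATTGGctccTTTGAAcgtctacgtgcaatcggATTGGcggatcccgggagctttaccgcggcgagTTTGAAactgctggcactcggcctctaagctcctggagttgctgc
Top2a: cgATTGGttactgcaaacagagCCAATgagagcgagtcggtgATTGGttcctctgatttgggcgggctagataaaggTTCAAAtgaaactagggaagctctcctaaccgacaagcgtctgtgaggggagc
Plk1: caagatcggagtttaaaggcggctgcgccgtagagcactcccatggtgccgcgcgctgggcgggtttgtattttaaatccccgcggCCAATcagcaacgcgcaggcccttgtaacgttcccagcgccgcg
Mki67: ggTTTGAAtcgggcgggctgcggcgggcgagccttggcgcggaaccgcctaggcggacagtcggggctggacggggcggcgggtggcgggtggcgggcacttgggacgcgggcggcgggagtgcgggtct
Ect2: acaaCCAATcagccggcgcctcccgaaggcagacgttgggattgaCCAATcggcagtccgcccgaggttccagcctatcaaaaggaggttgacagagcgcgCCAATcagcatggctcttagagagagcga

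These stretches held 1 CHR and 3 CCAAT matches for Ccnb2, 2 and 2 for Cdk1, and 1 and 3 for Top2a. Plk1 had 0 and 1, and Mki67 had 1 and 0, in the stretches shown, while the whole window of each held both kinds of match. Ect2 had 3 CCAAT matches and 0 CHR matches in the stretch shown, and a CHR match elsewhere in its 2 windows. Across the mitotic windows 65.1% of CHR matches lay from 25 bases before to 50 after the start, where 18.7% of CHR matches in all windows lay. For CCAAT, 67.1% of matches lay in the 100 bases before the start, and 43.8% in all windows. These bounds differ by element and match the bins where the mitotic matches were densest, so the shares are a description and not a test. Mad2l1, Pttg1, Nuf2, Kif18a, Nusap1 and Birc5 had neither match in their windows.

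**Figure D2:**
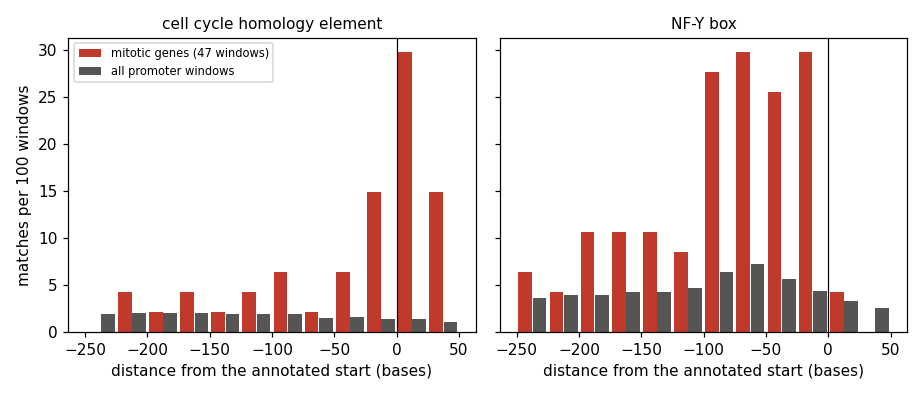
Matches per 100 promoter windows (y axis) in bins of 25 bases along the distance from the annotated start (x axis, in bases), for the CHR element on the left and the CCAAT box, labelled NF-Y box, on the right. Red bars are the 47 windows of the mitotic genes and grey bars all 32851 windows; the red bars are tallest just after the start for the CHR element (29.8 per 100 windows in the first 25 bases) and in the 100 bases before it for the NF-Y box.

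Cyclins and kinases that start mitosis had a median log2 fold change of -0.065 over 8 measured genes. Of these, 7 had a lower mean in DKO (87.5%, beside 60.2% of all genes), and the DKO and control values overlapped for all 8. Ccnb2, cyclin B2, was at 10.68, 10.54 and 10.46 in DKO 1 to 3, against 10.67, 10.70 and 10.72 in control 1 to 3. DKO 2 and DKO 3 lay below all controls and DKO 1 lay among them, and the log2 fold change was -0.14 ± 0.07 (SE, limma adjusted p = 0.417). Plk1, the kinase that acts at centrosomes, kinetochores and the midzone, was at 10.77, 10.69 and 10.81 in DKO, against 10.89, 10.81 and 10.91 in control embryos. Only DKO 3 reached the lowest control, and the log2 fold change was -0.11 ± 0.06 (SE, limma adjusted p = 0.450).

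Cdk1 itself was at 10.43, 10.50 and 10.68 in DKO, against 10.45, 10.46 and 10.56 in control embryos. The groups overlapped, and its log2 fold change of 0.046 ± 0.080 (SE, limma adjusted p = 0.829) was the highest of the 8. It turned to -0.026 without DKO 3, the embryo with the highest Cdk1. Foxm1, the forkhead factor that activates many late cell cycle genes, was at 9.12, 8.91 and 8.93 in DKO, against 9.07, 8.94 and 9.21 in control embryos. These groups overlapped too, with a log2 fold change of -0.089 ± 0.090 (SE, limma adjusted p = 0.689). Ccna2 (cyclin A2), Cdc25b and Cdc25c, phosphatases that activate Cdk1, and Aurka, the centrosomal Aurora kinase, had log2 fold changes of -0.035, -0.021, -0.054 and -0.075.

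Genes of the spindle checkpoint and of anaphase entry had the median closest to 0 of the 5 role groups, -0.0076 over 9 genes. Bub1, a checkpoint kinase, was at 9.54, 9.53 and 9.67 in DKO, against 9.66, 9.57 and 9.78 in control embryos. The groups overlapped and the log2 fold change, the lowest of the 9, was -0.090 ± 0.076 (SE, limma adjusted p = 0.631). Bub1b, the checkpoint protein BubR1, had the highest. It was at 9.48, 9.33 and 9.35 in DKO, against 9.34, 9.33 and 9.26 in control embryos, with DKO 1 above the rest (0.076 ± 0.066 SE, limma adjusted p = 0.639). Bub3, their partner at the kinetochore, was at 11.37, 11.32 and 11.34 in DKO, against 11.39, 11.38 and 11.49 in control embryos. The groups did not overlap, although DKO 1 lay just below control 2, and the log2 fold change was -0.076 ± 0.061 (SE, limma adjusted p = 0.612).

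Mad2l1 and Ttk, which encode the checkpoint protein Mad2 and the kinase Mps1, had log2 fold changes of 0.0051 and -0.0076. Those of Cdc20 and Ube2c, the activator and the ubiquitin-conjugating enzyme of the anaphase-promoting complex, were -0.061 and -0.0046. Ube2c varied least of the 49 genes, by 0.05 on the log2 scale between its lowest and highest array. Pttg1, which encodes securin, the inhibitor of separase, varied most, by 0.67. It was at 8.46, 7.78 and 8.17 in DKO, against 8.04, 8.0 and 8.33 in control embryos, so that DKO 1 was the highest and DKO 2 the lowest of all 6. Its log2 fold change was 0.014 with a 95% interval of -0.36 to 0.39, and -0.15 without DKO 1, while that of Espl1, separase itself, was -0.053.

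Centromere and kinetochore genes had a median log2 fold change of -0.032 over 8 genes. Spc25, a subunit of the Ndc80 complex that grips spindle microtubules, had the lowest value of the 8. It was at 9.09, 9.05 and 9.04 in DKO, against 9.23, 9.11 and 9.39 in control embryos. The groups did not overlap, control 3 stood highest, and the log2 fold change was -0.18 ± 0.08 (SE, limma adjusted p = 0.330). It was between -0.24 and -0.11 when any 1 array was left out.

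The other subunits of the same complex did not share a direction. Nuf2 was at 9.38, 9.12 and 9.22 in DKO, against 9.38, 9.36 and 9.37 in control embryos, with a log2 fold change of -0.13 ± 0.08 (SE, limma adjusted p = 0.485). Control embryos lay close together and DKO embryos spread from their level downwards. Spc24 and Ndc80 had log2 fold changes of -0.036 and 0.063, both with overlapping groups. Cenpa, the histone H3 variant that marks centromeres, was at 9.67, 9.59 and 9.71 in DKO, against 9.77, 9.70 and 9.80 in control embryos (log2 fold change -0.099 ± 0.065 SE, limma adjusted p = 0.523). Cenpf, a large kinetochore protein, had the highest value of the 8 (0.064 ± 0.065 SE, limma adjusted p = 0.688), and those of Cenpe, a kinetochore motor, and Cenpk were -0.028 and 0.014.

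**Figure D3:**
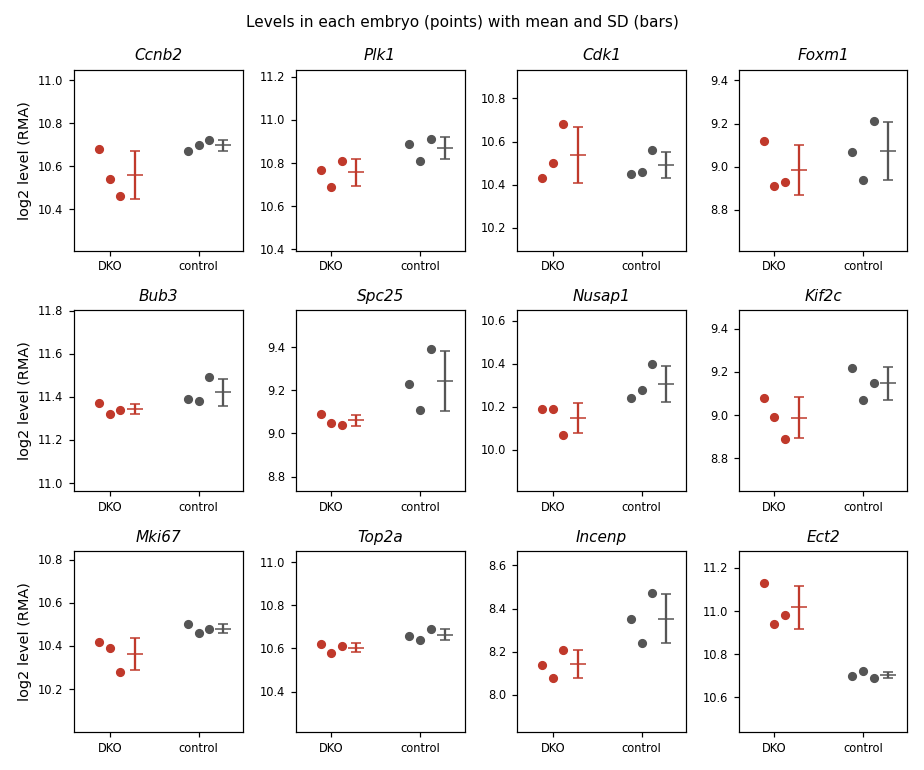
Log2 levels (y axis, RMA; each panel spans the same height on the log2 scale) of 12 genes in each embryo, DKO in red on the left and control in grey on the right. Points are embryos and bars the mean and SD of 3; the DKO and control points are apart for Bub3, Spc25, Nusap1, Mki67, Top2a, Incenp and Ect2 and overlap or touch for the others.

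Spindle and chromosome genes had a median of -0.061 over 12 genes, 9 of them with a lower mean in DKO (75.0%, beside 60.2% of all genes). All DKO embryos lay below all controls for 4 of the 12 (33.3%, beside 13.4% of all genes) and above for 0 (beside 8.22%). This was the highest share below of the 5 role groups, and over the 49 genes the share was 14.3%. The count below was 0 of 8 for cyclins and kinases, and 1 of 9 for checkpoint and anaphase entry. It was 1 of 8 for centromere and kinetochore genes. Chromosomal passenger and cytokinesis genes had 1 of 12 below and 2 above. Nusap1, which binds and stabilises spindle microtubules around chromosomes, was at 10.19, 10.19 and 10.07 in DKO, against 10.24, 10.28 and 10.40 in control embryos. Its log2 fold change was -0.15 ± 0.07 (SE, limma adjusted p = 0.342). Kif2c, a kinesin that shortens microtubules at centromeres, was at 9.08, 8.99 and 8.89 in DKO, against 9.22, 9.07 and 9.15 in control embryos. DKO 1 lay just above control 2, and the log2 fold change, the lowest of the 12, was -0.16 ± 0.07 (SE, limma adjusted p = 0.354).

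The standard proliferation markers differed by less than 0.12 on the log2 scale. Mki67, the coat protein of mitotic chromosomes known as Ki-67, was at 10.42, 10.39 and 10.28 in DKO, against 10.50, 10.46 and 10.48 in control embryos. All DKO embryos lay below all controls, and the log2 fold change had a 95% interval of -0.26 to 0.03 (limma adjusted p = 0.438). Top2a, the topoisomerase that untangles sister chromosomes, was at 10.62, 10.58 and 10.61 in DKO, against 10.66, 10.64 and 10.69 in control embryos. These groups did not overlap either, and the log2 fold change of -0.057 had an interval of -0.19 to 0.07 (limma adjusted p = 0.689). For both genes the whole interval lay inside 1.2-fold either way.

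Spindle motors went either way. Kif18a, which dampens chromosome movements, had the highest log2 fold change of the 12 (0.12 ± 0.08 SE, limma adjusted p = 0.518), followed by Kif4, a chromosome-bound kinesin, at 0.097. Kif11, the motor that pushes spindle poles apart, had -0.089 and Kif22, another chromosome-bound kinesin, -0.052. Kif22 was at 8.99, 8.97 and 8.96 in DKO and at 9.02, 9.00 and 9.05 in control embryos, so its groups were apart with a small difference. Tpx2, which activates Aurora A on the spindle, Aspm, the spindle pole protein mutated in human microcephaly, Ckap2 and Hmmr, both bound to spindle microtubules, had log2 fold changes of -0.065, -0.078, -0.020 and 0.021.

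Ect2 had the highest log2 fold change of the 49 genes. It encodes the exchange factor that switches on RhoA at the cell equator so that the contractile ring forms. Its level was 11.13, 10.94 and 10.98 in DKO 1 to 3, against 10.70, 10.72 and 10.69 in control 1 to 3. The groups did not overlap, and the means were 11.02 ± 0.10 in DKO and 10.70 ± 0.02 in control embryos (SD, n = 3 each). The level was 1.24-fold that of control (log2 fold change 0.32 ± 0.07 SE, 95% interval 0.16 to 0.47), with a limma adjusted p of 0.0688 and rank 377 by p among 16724 genes.

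The Ect2 call depended on the setting. Its adjusted p was 0.0376 with a filter at the median, 0.0114 with an intensity trend and 0.0437 with array weights, and over all 15 alternatives it ran from 0.0114 to 0.224. In the 6 fits that left out 1 array it was between 0.0709 and 0.224 and the log2 fold change between 0.26, without DKO 1, and 0.35.

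The partners of Ect2 were not called in any direction. Racgap1, the centralspindlin subunit that recruits Ect2 to the midzone, was at 10.17, 10.08 and 10.06 in DKO, against 10.22, 10.11 and 10.20 in control embryos. The groups overlapped, and the log2 fold change was -0.076 ± 0.065 (SE, limma adjusted p = 0.635). That of Kif23, the kinesin of the same complex, was -0.017. Prc1, which bundles midzone microtubules, had 0.041, and Anln, the ring scaffold anillin, was at 8.89, 8.84 and 8.86 in DKO, against 8.78, 8.81 and 8.81 in control embryos. Anln was thus higher in every DKO embryo, by 0.063 ± 0.057 (SE, limma adjusted p = 0.650) on the log2 scale.

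The chromosomal passenger complex, which corrects faulty attachments and then moves to the midzone, held the lowest value of the 49 genes. Incenp, its scaffold, was at 8.14, 8.08 and 8.21 in DKO, against 8.35, 8.24 and 8.47 in control embryos. DKO 3 came closest to the controls without reaching control 2, and the log2 fold change was -0.21 ± 0.08 (SE, limma adjusted p = 0.230, unadjusted p = 0.0223). It stayed between -0.27 and -0.15 when any 1 array was left out, and 0 of 15 alternatives called it. Its partners Aurkb, the kinase, Birc5 (survivin) and Cdca8 (borealin) had log2 fold changes of 0.041, -0.029 and -0.027. The cytokinetic kinesins Kif14, Kif20a and Kif20b had -0.081, -0.079 and 0.016, and the median over the 12 genes of this group was -0.022.

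**Figure D4:**
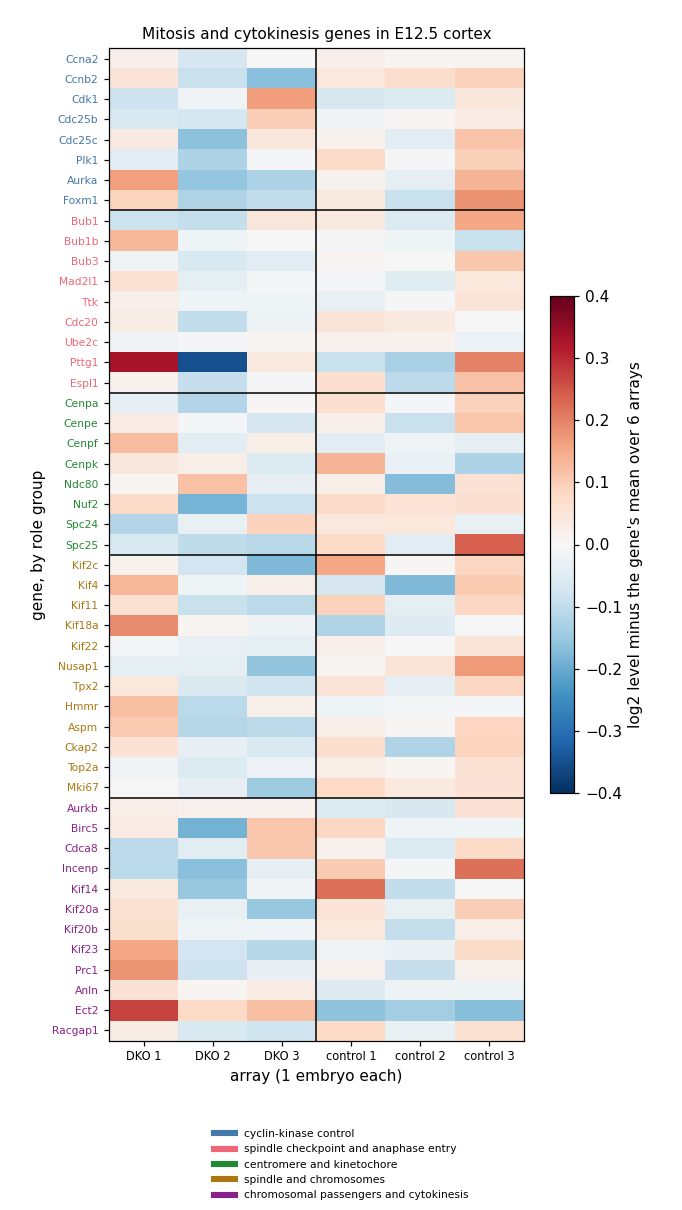
Log2 level of each of the 49 genes in each array minus the gene's mean over the 6 arrays (colour scale, log2 units), with DKO arrays on the left and control arrays on the right of the vertical line and genes in role groups (coloured names, horizontal lines). DKO 2 and DKO 3 are bluer than DKO 1, control 3 is redder than the other controls, and Ect2 is the one row that is clearly red on the left and blue on the right.

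The genotypes overlapped array by array. As the median over the 49 genes of the deviation from each gene's mean, DKO 1 to 3 stood at 0.033, -0.059 and -0.019, against 0.022, -0.027 and 0.062 for control 1 to 3. Over all genes tested the same medians were -0.011, -0.031 and 0.0038 in DKO and 0.020, -0.0049 and 0.016 in control embryos. DKO 2 held the lowest of the 6 values for 19 of the 49 genes, and control 3 the highest for 19, followed by DKO 1 with 15. The median log2 fold change of the list was -0.017 without DKO 2 and -0.065 without DKO 1.

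Markers of other cells moved with 1 of these embryos. The median deviation of 9 endothelial markers was 0.015, -0.47 and 0.12 in DKO 1 to 3, against 0.25, 0.070 and 0.091 in control 1 to 3. For 7 erythroid markers it was 0.15, -0.49 and 0.22 in DKO and 0.084, 0.017 and 0.033 in control embryos. DKO 2, the lowest of the 6 on both lists, was also the lowest for the mitotic genes. It was the lowest too over all genes tested (-0.031), further mitotic genes (-0.062) and DNA replication and G1/S genes (-0.075). For the progenitor and neuron markers described below it was not the lowest. The part of blood and vessel cells in the mitotic values was not tested.

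Other genes of the pathway, taken from lists that these 50 are not on, were likewise not called. Of 74 further mitotic genes that could be tested (of 81 listed), 0 rose and 0 fell by limma, 7 had an unadjusted p under 0.05 (9.46%, beside 15.6% of all genes), and the median log2 fold change was -0.045. All 3 DKO embryos lay below all controls for 14 of them (18.9%) and above for 0, beside 13.4% and 8.22% of all genes. The smallest p belonged to Sapcd2, a regulator of spindle orientation, at 7.32, 7.51 and 7.47 in DKO, against 7.79, 7.83 and 7.69 in control embryos. Its log2 fold change was -0.33 ± 0.07 (SE, limma adjusted p = 0.0747), and like Ect2 it was called with a filter at the median (0.0421), an intensity trend (0.0485) and array weights (0.0438) only. Next came Ckap2l (-0.26), a spindle protein of neural progenitors in mice, Arhgap11a (-0.21) and Troap (-0.23), with adjusted p values of 0.139, 0.196 and 0.208.

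DNA replication and G1/S genes, which act before mitosis, were also not called. Of 29 tested (of 32 listed), 0 rose and 0 fell by limma, 2 had an unadjusted p under 0.05 (6.90%, beside 15.6% of all genes), and the median log2 fold change was -0.023. The 4 with the smallest p were Orc1, of the origin recognition complex, at 0.21 (adjusted p = 0.20), E2f1, the G1/S transcription factor, at -0.15 (0.320), Gmnn, the licensing inhibitor geminin, at 0.16 (0.361), and Prim1, a primase subunit, at -0.14 (0.380).

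Progenitor and neuron markers did not all behave in the same way in these arrays. The median log2 fold change of 10 apical progenitor markers was -0.016, with 0 rising and 1, Hes5, falling, beside 1.36% and 0.359% of all genes. Its members went both ways, with 3 of 10 higher in every DKO embryo (Nes, Vim and Hes1) and 3 lower (Emx2, Hes5 and Sox9), beside 8.22% and 13.4% of all genes. Over 10 intermediate progenitor markers the median was -0.43, with 0 rising and 4 falling (Btg2, Gadd45g, Hes6 and Mfng), where 0.359% of all genes fell. All 10 had every DKO embryo below every control, beside 13.4% of all genes. The marker lists were chosen with earlier results of these data known, so such shares are a description and not an independent test. For 10 neuron markers the median was -0.23 with no call in either direction. All 10 of these had a lower mean in DKO, beside 60.2% of all genes. In 7 of them (70%, beside 13.4% of all genes) every DKO embryo lay below every control. The array medians of the intermediate progenitor list were -0.36, -0.17 and -0.15 in DKO, against 0.20, 0.12 and 0.28 in control embryos. DKO 1, the lowest embryo on that list, was the highest DKO embryo for the mitotic genes. Of 11 genes marking cortical hem or choroid plexus cells, 2 rose (Ttr and Lmx1a) and 0 fell, with a median of 0.39, where 1.36% of all genes rose. Hes5 and Mfng were called in all 15 alternatives, while the other calls depended on single embryos. Btg2 and Hes6 were not called when any 1 array was left out, with adjusted p from 0.053 to 0.149 and from 0.0770 to 0.135. Gadd45g was lost without DKO 1, DKO 3, control 1 or control 3, with adjusted p up to 0.0974. Ttr was lost without DKO 1 or any 1 control, with adjusted p up to 0.141, and Lmx1a without DKO 1, control 1 or control 3, with adjusted p up to 0.0583. The part of these cell types in the mitotic values was not tested.

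**Figure D5:**
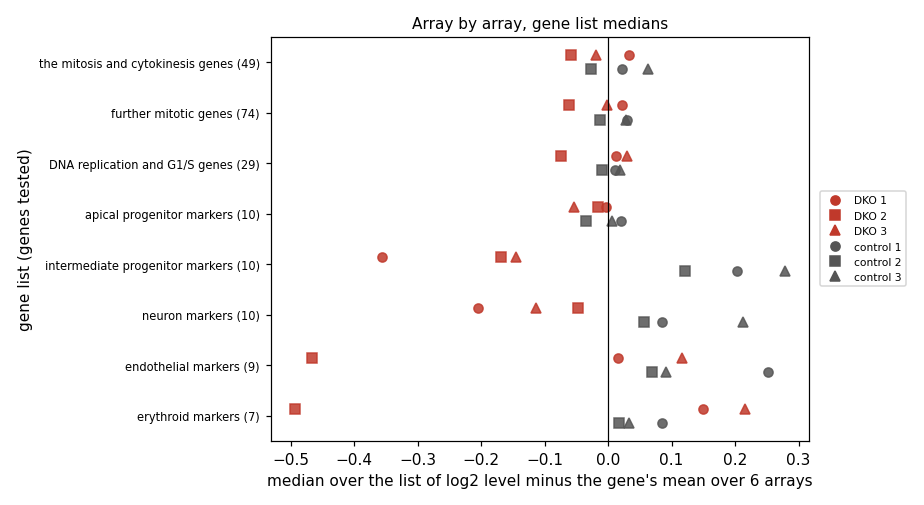
Median over each gene list (y axis, genes tested in brackets) of the log2 level minus the gene's mean over 6 arrays (x axis, log2 units), with DKO arrays in red above control arrays in grey and the symbol giving the embryo number. The mitosis and cytokinesis genes lie within 0.07 of 0 in every embryo with the groups mixed, the intermediate progenitor and neuron markers are lower in all 3 DKO embryos, and DKO 2 stands apart on the endothelial and erythroid lists.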

How the data were processed

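RNA from 6 embryonic cortices (3 DKO, 3 control) was read on 1 array each. The authors deposited log2 values made with RMA, per the submitters' processing notes. For its version, the software and the genome build, nothing is stated in the sources used here. Scanner files were not used here, so no detection call was at hand.

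Of 41345 rows, 23521 had 1 gene symbol in the platform's annotation, 1814 had several and 16010 are unnamed here. Rows with 1 symbol were kept, with the row of the highest mean for each gene. Genes below the 25th percentile of the row means (5.02) were left out. DKO was compared with control by limma 3.58.1 in R 4.3.3 (lmFit, eBayes, no covariate, two-sided, Benjamini-Hochberg over 16724 genes, called under 0.05), with 8.44 total degrees of freedom, and intervals are at 95%. The procedure was tested on simulated data. The members and lists were chosen with earlier results of these data known, and the role groups follow each gene's function. Values per embryo are given for the 3 smallest p in each role group, for the markers Mki67, Top2a, Cdk1 and Foxm1, and for Pttg1, Kif22 and Anln, which were chosen after their values were seen. No pairing was used, since the labels tie replicate numbers to no litter. Promoter sequences are RefSeq's (GRCm38.p6), as tables of 300 bases. Other settings tried were 2 filters, 2 normalizations, 2 variance models, array weights, the mean of a gene's rows, a replicate block, and leaving out each array.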

Additional observations from a re-analysis of the deposited data

How the results depend on the processing

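The 49 mitosis and cytokinesis genes had 0 calls lower in DKO under all 15 alternatives. Calls higher in DKO numbered 0 under 12 alternatives and 1, Ect2, with a filter at the median, with an intensity trend and with array weights. Their median log2 fold change of -0.036 was between -0.065 and -0.017 in all alternatives. The count of genes with every DKO array below every control array was 7 in the fit as reported (14.3%, beside 13.4% of all genes). It was 12 with quantile normalization repeated (24.5%, beside 14% of all genes). With 1 array left out, which leaves fewer arrays to separate, it was 7 to 20 (14.3% to 40.8%, beside 17% to 22.3% of all genes). The count above, 2 (4.08%, beside 8.22%), was then 2 to 5 (4.08% to 10.2%, beside 10.8% to 14.9% of all genes). Over all genes, 60 were lower in DKO in the fit as reported, 134 with a filter at the median, 162 with an intensity trend, 123 with array weights and 24 with the replicate block. Leaving out 1 array gave 121 to 260 higher and 11 to 54 lower, with fewer samples in each fit; the cause of the other shifts was not tested. Of the 49 genes, 19 took the other sign under at least 1 alternative, 13 of them only when an array was left out, and all had log2 fold changes within 0.081 of 0. With 1 array left out, the values ran from -0.026 to 0.099 for Cdk1, from -0.076 to 0.0092 for Cdc25b, from -0.093 to 0.015 for Cdc25c, from -0.024 to 0.028 for Mad2l1, from -0.025 to 0.015 for Ttk, from -0.019 to 0.0042 for Ube2c, from -0.145 to 0.192 for Pttg1, from -0.078 to 0.020 for Cenpe, from -0.046 to 0.084 for Cenpk, from -0.0076 to 0.106 for Ndc80, from -0.091 to 0.014 for Spc24, from -0.036 to 0.080 for Hmmr, from -0.086 to 0.019 for Ckap2, from -0.092 to 0.057 for Birc5, from -0.087 to 0.018 for Cdca8, from -0.151 to 0.0083 for Kif14, from -0.027 to 0.043 for Kif20b, from -0.101 to 0.033 for Kif23 and from -0.037 to 0.092 for Prc1. With array weights the turned values were 1e-04 for Cdc25b, 0.004 for Ttk, -0.044 for Cenpk and -0.0041 for Kif20b. With repeated quantile normalization the turned values were -0.0017 for Mad2l1 and 0.013 for Ube2c. With equal array medians the turned values were 0.0078 for Ttk and 0.011 for Ube2c. Sapcd2 was called under the same 3 settings as Ect2. Btg2 was lost with no filter (adjusted p = 0.0528), Btg2, Gadd45g and Hes6 with the replicate block (0.0813, 0.0527 and 0.107) and Ttr with robust variances (0.0943).

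Deviations of same-numbered DKO and control arrays had correlations of -0.103, 0.209 and 0.152. Differently numbered arrays were not compared, so these values do not decide whether the embryos were paired. With the replicate block 0 of the 49 genes passed, and 176 genes were higher in DKO. Depth has no counterpart on these arrays, and without detection calls no row could be placed against background.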
